A study of Mus musculus with 4 samples.

Results

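The 9 genes described here are the calprotectin subunits S100a8 and S100a9, the neutrophil receptors Cxcr2 and Csf3r, and the neutrophil granule genes Mpo, Elane, Ltf, Camp and Ngp. They were chosen by name, and their probes were found through the RefSeq accession or gene name of each spot. Of 41174 probes on the array, 11 belonged to these genes: Cxcr2 and Ltf had 2 probes each and the other genes 1 each. After the filter on dim probes, 8 of the 9 genes were among the 25094 genes and unnamed accessions tested, and Elane was not. Passing that filter took a reading well above background in at least 2 of 8 (2 channels on 4 arrays), so a gene could pass through the control pools alone.

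Liver RNA came from 8-week-old female mice of CD-1, an outbred stock, given a small interfering RNA (siRNA) against Cux2, a homeobox transcription factor with female-biased expression in mouse liver. Livers were taken 5 or 8 days after treatment, and each was compared with livers of female CD-1 mice of the same age given a non-specific siRNA. Each of 4 Agilent 2-colour arrays carried 1 treated and 1 control pool. For day 5, the pool of replicate 1 was made from 3 treated mice and that of replicate 2 from 2, and both day 8 pools were made from 2. All groups received an siRNA, and a group without one was not analysed here. The control mice numbered 13 in pools of 6 or 7 by the series description, while each array's own description gives 6. The labels do not say which control pool an array carried or when its mice were killed. On both days treated RNA was red (Alexa 647) in replicate 1 and green (Alexa 555) in replicate 2, so replicate number, pool and dye cannot be told apart. With 2 control pools on 4 arrays, control RNA recurs between arrays, so the 4 ratios are not fully independent. The p-values reflect variation between pools and dyes, not between single mice.

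Per channel, 71.1% to 74.5% of probes stood well above background, and 0 spots were saturated. Cux2 itself stood at 28.6% of the control level at day 5 and at 45.6% at day 8. The hepatocyte markers kept (7 of 8 listed, albumin among them) were well above background in all 8 readings. One array stood apart in genes of the exocrine pancreas: day 8 replicate 1 had Cpa1 at a log2 ratio of 0.46, against -3.05 to -4.13 on the other arrays.

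Neutrophils are short-lived granulocytes made in bone marrow that enter the liver from blood and adhere in its sinusoids. Their granule proteins are made in order during maturation: myeloperoxidase (Mpo) and neutrophil elastase (Elane) first, for the primary granules, and lactoferrin (Ltf), cathelicidin (Camp) and neutrophilic granule protein (Ngp) later, for the secondary granules. S100a8 and S100a9 are small calcium-binding proteins that pair as calprotectin, fill much of the cytosol of mature neutrophils, are also made by monocytes, and act outside the cell on Toll-like receptor 4. Cxcr2 is the receptor for neutrophil-attracting CXC chemokines, and Csf3r is the receptor for granulocyte colony-stimulating factor.

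Promoter windows are shown for the 5 genes that passed the test over both days, since these moved in the same direction. They come from RefSeq on GRCm38.p6, run 5′ to 3′ on the gene's strand from 250 bases before the annotated start to 30 after it, and all 9 genes matched an entry. Capitals mark matches, on either strand, to 4 motifs: C/EBP (TTGCNNAA), PU.1 (GAGGAAG), STAT (TTCNNNGAA) and the TATA box (TATAAA).
S100a8 promoter, chr3:90668821-90669100, plus strand: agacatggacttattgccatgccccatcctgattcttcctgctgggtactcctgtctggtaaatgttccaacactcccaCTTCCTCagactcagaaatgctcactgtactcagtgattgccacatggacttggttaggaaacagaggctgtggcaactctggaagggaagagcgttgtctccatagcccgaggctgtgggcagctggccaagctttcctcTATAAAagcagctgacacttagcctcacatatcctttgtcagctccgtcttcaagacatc
S100a9 promoter, chr3:90695692-90695971, minus strand: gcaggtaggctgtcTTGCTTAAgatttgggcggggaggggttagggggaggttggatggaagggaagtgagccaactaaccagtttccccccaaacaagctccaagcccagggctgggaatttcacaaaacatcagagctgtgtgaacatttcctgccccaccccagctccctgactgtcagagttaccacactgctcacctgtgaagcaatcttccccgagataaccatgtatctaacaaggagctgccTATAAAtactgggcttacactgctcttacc
Cxcr2 promoter, chr1:74153744-74154023, plus strand: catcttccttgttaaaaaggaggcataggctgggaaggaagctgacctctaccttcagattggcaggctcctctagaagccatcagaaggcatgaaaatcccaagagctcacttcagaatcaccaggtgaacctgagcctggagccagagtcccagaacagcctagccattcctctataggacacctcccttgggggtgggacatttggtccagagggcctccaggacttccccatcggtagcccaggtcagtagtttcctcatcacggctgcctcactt
Csf3r promoter, chr4:126024409-126024688, plus strand: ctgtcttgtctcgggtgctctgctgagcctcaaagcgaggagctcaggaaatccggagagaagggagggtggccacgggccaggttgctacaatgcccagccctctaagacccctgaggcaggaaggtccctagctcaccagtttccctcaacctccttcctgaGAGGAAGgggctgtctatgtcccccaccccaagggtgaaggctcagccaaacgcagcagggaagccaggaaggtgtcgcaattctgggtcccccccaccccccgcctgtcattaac
Mpo promoter, chr11:87793534-87793813, plus strand: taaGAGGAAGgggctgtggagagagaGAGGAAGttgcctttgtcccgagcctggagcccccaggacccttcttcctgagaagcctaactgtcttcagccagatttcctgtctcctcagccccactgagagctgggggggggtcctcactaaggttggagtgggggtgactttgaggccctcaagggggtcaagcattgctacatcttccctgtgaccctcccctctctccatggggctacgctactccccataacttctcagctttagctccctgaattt

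The letters TATAAA began at position -30 from the annotated start in S100a8 and at position 1 in S100a9, and were in 2 of the 9 windows of 300 bases. Of 32851 mouse promoter windows of the same length, 13.6% held them. The PU.1 letters were in 4 of 9 windows (S100a8, Csf3r, Elane and, at 2 positions, Mpo), against 13.6% of all windows. C/EBP letters were in 3 of 9 (S100a9, Ngp and Ltf), against 10.8%. The STAT letters were in 0 of 9, against 8.3%. None of the 4 motifs was in the Cxcr2 and Camp windows. The matches describe letters only and were not tied to any measurement of binding. With TATAAA at position 1, the annotated S100a9 start may not be its main start, so positions in its window hold for the annotation only.

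Over both days 5 of the 8 tested genes fell after Cux2 siRNA: S100a8, S100a9, Cxcr2, Mpo and Csf3r. None rose, and Ngp, Camp and Ltf did not pass. The calprotectin subunits fell 5.32-fold and 5.65-fold, Cxcr2 1.54-fold, Mpo 1.47-fold and Csf3r 1.24-fold on the scale used here, which understates the change of dim genes. A gene passed when its Benjamini-Hochberg adjusted p, from 1 limma fit over all genes and 4 arrays, was under 0.05. Of all genes tested, 16.3% fell and 14.8% rose by the same rule. The median log2 ratio of the 8 genes was -0.44, beside 0.0032 over all genes. The same 5 genes had ratios below 0 on all 4 arrays, as 26.1% of all genes did. In the same 5, every treated level lay below every control level, as in 15.4% of all genes. In liver RNA as a whole, fewer neutrophils or monocytes and less RNA per cell cannot be told apart.

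**Figure D1:**
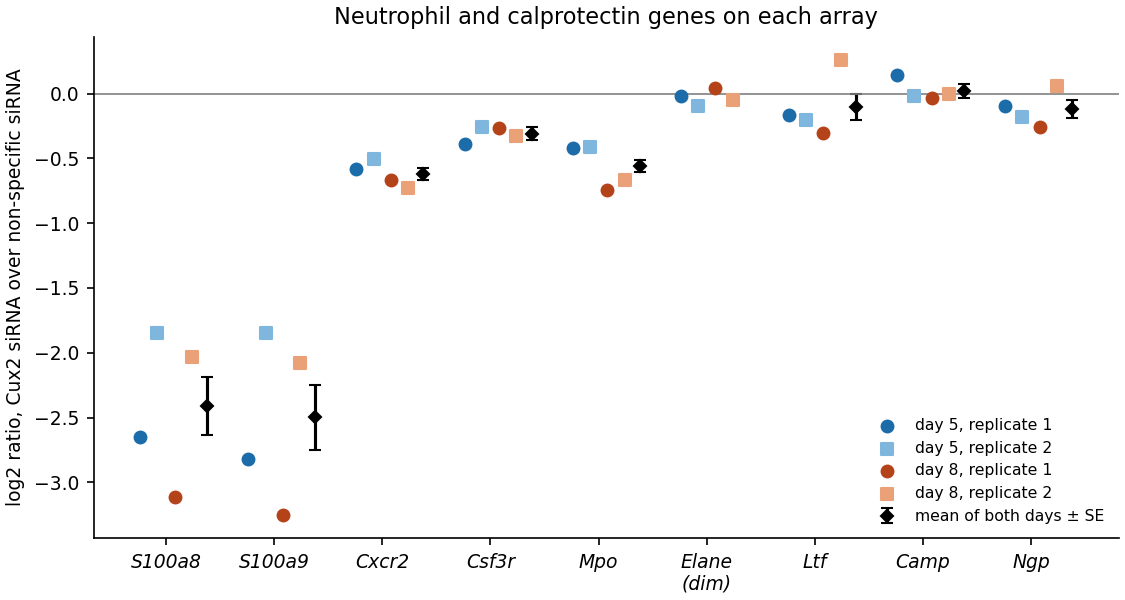
Log2 ratio of Cux2 siRNA over non-specific siRNA (vertical axis) for the 9 genes on each of 4 arrays (circles replicate 1, squares replicate 2), with the mean of both days and its SE as a black diamond. S100a8 and S100a9 lie between -1.85 and -3.25, Cxcr2, Csf3r and Mpo between -0.26 and -0.74, and the ratios of Ltf, Camp and Ngp spread around 0. Elane was too dim to be tested and has no diamond.

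On the day 5 arrays S100a8 had log2 ratios of -2.65 (replicate 1) and -1.85 (replicate 2), and on the day 8 arrays -3.12 and -2.04 in that order. Every array was low, and on each day the ratio in replicate 1, with the treated pool in Alexa 647, was the lower. Its normalized level, the log2 intensity of a channel, was 11.72 ± 0.36 in the control pools and 9.31 ± 0.29 in the treated pools (SD, n = 4 arrays). The lowest control level (11.36) lay above the highest treated level (9.51). Over both days S100a8 fell by 2.41 on the log2 scale (SE 0.22, adjusted p = 0.00337, limma), which is 5.32-fold and leaves 18.8% of the control level. Day 5 gave -2.25 (SE 0.32, adjusted p = 0.0168) and day 8 gave -2.58 (SE 0.32, adjusted p = 0.0148).

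S100a9 followed the same order, with day 5 log2 ratios of -2.82 and -1.85 followed by -3.25 and -2.08 at day 8. Control levels ran from 13.11 to 13.57 and treated levels from 10.24 to 11.27, with no overlap. Its mean over both days fell by 2.50 (SE 0.25, adjusted p = 0.00398, limma), or 5.65-fold, to 17.7% of control. At day 5 it was -2.33 (SE 0.36, adjusted p = 0.0197) and at day 8 -2.66 (SE 0.36, adjusted p = 0.0171).

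The log2 ratio of S100a8 exceeded that of S100a9 by 0.16, 0.00, 0.14 and 0.04 on the 4 arrays, a mean of 0.09 ± 0.08 (SD, n = 4). Each subunit lay below the receptor gene Csf3r on all 4 arrays, S100a8 by a mean log2 ratio of -2.10 and S100a9 by -2.19. In these 3 comparisons the exact two-sided sign-flip test gave p = 0.125, the smallest value that 4 arrays allow. The order of the 2 subunits depended on the treatment of the spot background. With the scanner's own background-subtracted signals S100a8 was the lower on day 5 replicate 2 (-1.93 against -1.85) and day 8 replicate 2 (-2.18 against -2.07). On the replicate 1 arrays it was the higher. On the scale used here replicate 1 averaged -2.88 for S100a8 and -3.04 for S100a9 over the days, and replicate 2 averaged -1.94 and -1.96. With median centring in place of loess this split was narrower. S100a8 then had -2.39 and -2.18 at day 5 and -2.88 and -2.32 at day 8 (replicates 1 and 2). S100a9 had -2.51 and -2.23 at day 5 and -2.98 and -2.42 at day 8.

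In the S100 family as listed, 14 of 16 genes could be tested and 6 fell over both days, where 16.3% of all genes fell. Besides the calprotectin subunits these were S100a4 (-1.99, SE 0.17, adjusted p = 0.00295), S100a6 (-1.13), S100a11 (-0.85) and S100a10 (-0.56). S100a4 is made by macrophages, lymphocytes and fibroblasts among other cells, and S100a10 is the partner of annexin A2. The remaining 8 did not pass, with means from -0.30 (S100a1) to 0.27 (S100g), and S100a7a and S100z were not tested. The family median was -0.23. With median centring in place of loess only S100a8 and S100a9 of the 14 fell, where 182 of all 25094 genes fell. S100a4 and the subunits split by replicate in opposite ways on the scale used here. S100a4 had -1.47 and -1.80 in replicate 1 and -2.34 and -2.35 in replicate 2. For the subunits the split was narrower with median centring, as given above. S100a13 had -1.14 on day 8 replicate 2 and lay between -0.04 and 0.26 on the other arrays.

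**Figure D2:**
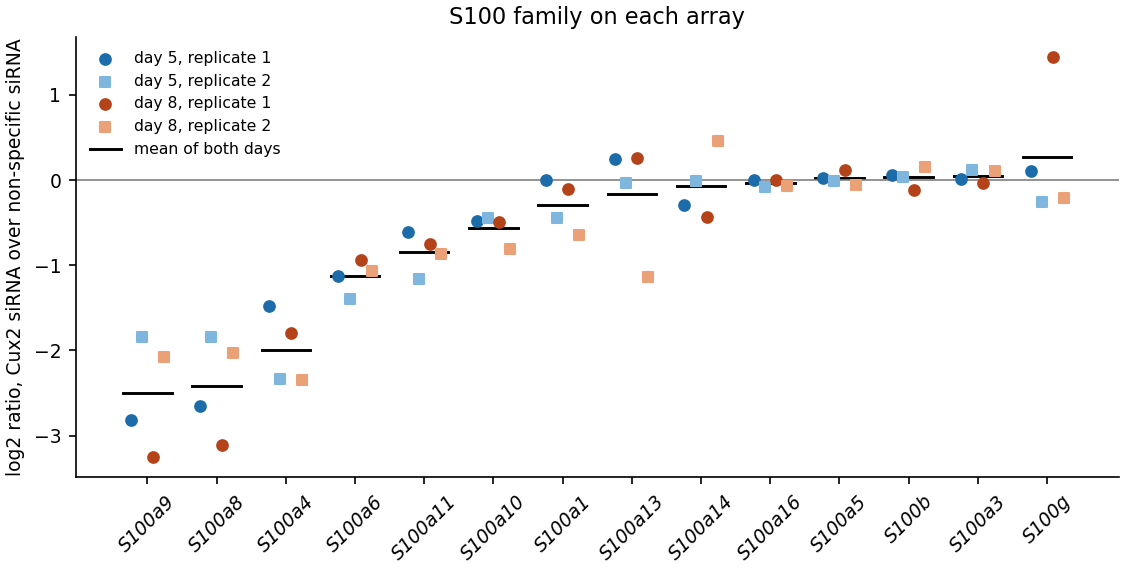
Log2 ratio of Cux2 siRNA over non-specific siRNA (vertical axis) for the 14 S100 genes tested, ordered by their mean over both days (black bar), with 1 point per array. S100a9, S100a8, S100a4, S100a6, S100a11 and S100a10 lie below 0 on all 4 arrays, and S100g reaches 1.45 on day 8 replicate 1.

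Both receptor genes fell over both days. Cxcr2 had log2 ratios of -0.58, -0.50, -0.67 and -0.73 (day 5 replicates 1 and 2, then day 8 replicates 1 and 2), and its second probe had -0.53, -0.47, -0.58 and -0.44. Both probes were below 0 on every array. Over both days Cxcr2 fell by 0.62 (SE 0.05, adjusted p = 0.00243, limma), or 1.54-fold. The single-day means were -0.54 (SE 0.07, adjusted p = 0.0139) and -0.70 (SE 0.07, adjusted p = 0.0103).

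Csf3r had log2 ratios of -0.39, -0.26, -0.27 and -0.33 in the same order. Its treated levels (9.23 to 9.45) lay just below its control levels (9.49 to 9.72), without overlap. Csf3r fell by 0.31 over both days (SE 0.05, adjusted p = 0.0131, limma), or 1.24-fold, and by 0.33 at day 5 (SE 0.07, adjusted p = 0.0449). The day 5 call was lost under 9 of 14 alternatives, with adjusted p up to 0.84 (limma). At day 8 the value was -0.30 (SE 0.07, adjusted p = 0.0612), which did not pass. Without day 5 replicate 1 (-0.28, adjusted p = 0.0667) or day 8 replicate 2 (-0.30, adjusted p = 0.0649) the call over both days was lost.

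Of the primary granule genes, Mpo had log2 ratios of -0.42 and -0.41 on the earlier day against -0.74 and -0.67 on the later. Replicates lay close together, and the day 8 arrays were the lower. By the limma fit, Mpo at day 5 fell by 0.41 (SE 0.07, adjusted p = 0.0223) and at day 8 by 0.71 (SE 0.07, adjusted p = 0.00993). Over both days it fell by 0.56 (SE 0.05, adjusted p = 0.00286), or 1.47-fold. Elane was well above background in 1 of 8 readings, a control channel, and its ratios of -0.02, -0.10, 0.04 and -0.05 were not tested. The listed primary granule genes numbered 5, of which 4 were tested and 3 fell over both days: Prtn3, proteinase 3 (-1.03, SE 0.26, adjusted p = 0.0407), Ctsg, cathepsin G (-0.73, SE 0.09, adjusted p = 0.00606), and Mpo. Prtn3 varied most, from -0.34 on day 5 replicate 1 to -2.03 on day 8 replicate 2, and kept its call under 1 of 5 other scalings. Of the list, 2 fell without background subtraction and 0 with median centring, where 3025 and 182 of all 25094 genes fell. Prss57 (-0.12) did not pass, and its treated channel was not well above background on any array.

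The secondary granule genes of the set did not pass on either day or over both. Ltf had log2 ratios of -0.17, -0.20, -0.30 and 0.26 on day 5 replicates 1 and 2 and day 8 replicates 1 and 2, with a mean of -0.10 (95% interval -0.37 to 0.17, adjusted p = 0.514, limma). Its second probe had -0.09, -0.08, -0.33 and 0.06, so both probes were above 0 on day 8 replicate 2 and below 0 on the other arrays. Camp had 0.14, -0.02, -0.03 and 0.00, with a mean of 0.02 (95% interval -0.12 to 0.16, adjusted p = 0.802). Ngp had -0.10, -0.18, -0.25 and 0.06, with a mean of -0.12 (95% interval -0.30 to 0.06, adjusted p = 0.264). Ngp was well above background in 5 of 8 readings, 2 of them treated. Treated and control levels overlapped for all 3 genes.

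**Figure D3:**
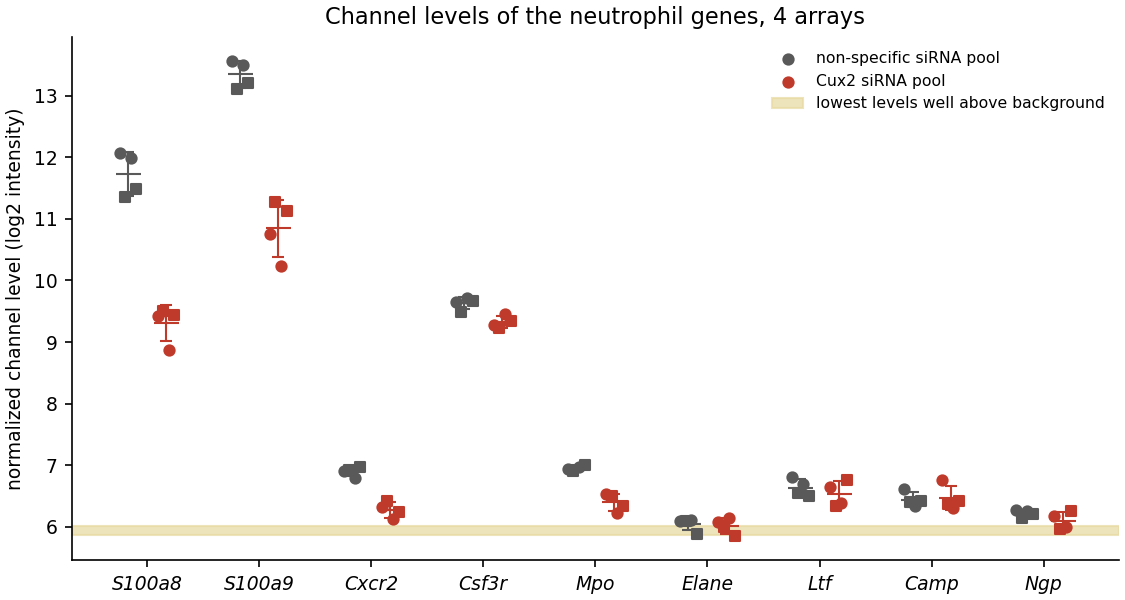
Normalized log2 intensity (vertical axis) of each gene in the control (grey) and treated (red) channel of 4 arrays, with mean and SD (bars) and the range of the lowest levels well above background (band, 5.87 to 6.01). Levels of different probes are not comparable with each other. Treated points lie below all control points for S100a8, S100a9, Cxcr2, Csf3r and Mpo, and overlap with them for the other genes.

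Spot signal above local background was 3265 to 3522 units for S100a8 in the control channels and 479 to 728.5 in the treated channels. For S100a9 the ranges were 9195 to 12115 and 1341 to 1972.5, and for Csf3r 629 to 942 and 434.5 to 735. Mpo had 57 to 85 and 18 to 38, and Cxcr2 45 to 82 and 13.5 to 25. In the control channels Ltf had 38 to 47.5, Camp 19 to 35, Ngp 15 to 19 and Elane 1 to 12.5. In the treated channels these 4 had 20 to 46, 22 to 54.5, 5.5 to 16 and 0 to 13.5.

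For the dim genes the size of the ratio followed the treatment of the spot background. The values above come from a model-based background correction (normexp) that adds an offset of 50 units, which draws ratios of dim spots towards 0. With an offset of 0, Mpo averaged -1.15 and Cxcr2 -1.37 over both days. With the scanner's own background-subtracted signals they averaged -1.50 and -1.82, or 2.83-fold and 3.52-fold lower, and with no background subtraction -0.15 and -0.16. Array by array, the scanner's log2 ratios were -1.03, -0.99, -2.09 and -1.90 for Mpo and -1.76, -1.33, -2.09 and -2.09 for Cxcr2, all below 0. Both genes passed over both days in each of these settings. S100a8 ranged from -2.00 to -2.52, S100a9 from -2.31 to -2.53 and Csf3r from -0.21 to -0.33 over the same 4 settings, and Csf3r did not pass with the scanner's signals (adjusted p = 0.0549, limma). Ngp reached -0.83 (SE 0.40, adjusted p = 0.197) with the scanner's signals, and Ltf -0.33 (SE 0.25, adjusted p = 0.378), and neither passed. A difference between Mpo or Cxcr2 and the secondary granule genes was not tested.

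**Figure D4:**
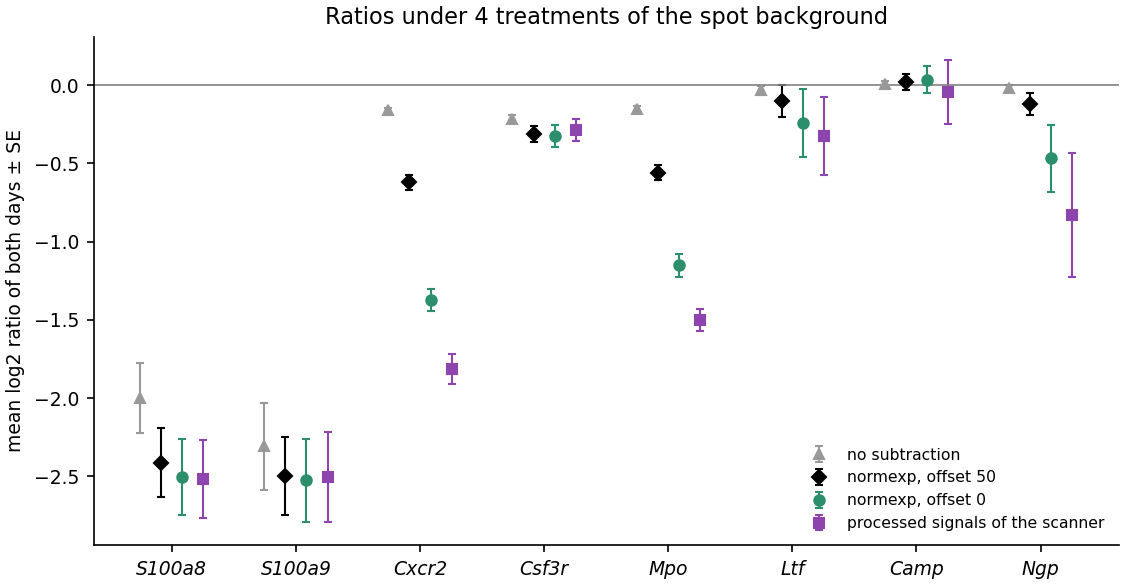
Mean log2 ratio of both days with its SE (vertical axis) for the 8 tested genes under 4 treatments of the spot background. S100a8 runs from -2.00 to -2.52, S100a9 from -2.31 to -2.53 and Csf3r from -0.21 to -0.33, whereas Cxcr2 moves from -0.16 to -1.82 and Mpo from -0.15 to -1.50.

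By day, 5 of the 8 genes fell at day 5, where 9.42% of all genes fell and 7.38% rose. At day 8, 4 of 8 fell, where 8.06% of all genes fell and 6.28% rose. The median of the 8 genes was -0.37 at day 5 and -0.50 at day 8. No gene passed the test of day 8 against day 5 (0% of all genes, with 621 at an unadjusted p under 0.05). The differences, day 8 minus day 5, were -0.33 for S100a8 (95% interval -1.49 to 0.84), -0.33 for S100a9 (-1.64 to 0.98), -0.15 for Cxcr2 (-0.41 to 0.10) and -0.29 for Mpo (-0.54 to -0.05). Mpo alone of the 8 had an unadjusted p under 0.05 (0.0286, adjusted p = 1, limma). Leaving out either array of a day left 1 array there. Fewer of all genes then passed at that day, and the calls of the 8 genes were lost with them.

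The wider neutrophil lists give the setting of these genes. They include the 9 genes themselves where these belong. Of 13 secondary and tertiary granule genes tested, 7 fell over both days and none rose, with a median of -0.34. By the same rule 16.3% of all genes fell and 14.8% rose. Lcn2, lipocalin 2, had the largest change of the list: -3.61, -4.43, -3.84 and -4.71 on the 4 arrays, a mean of -4.15 (SE 0.20, adjusted p = 0.00108, limma) or 17.7-fold. Chil3, a chitinase-like protein of myeloid cells (-2.41), Hp, haptoglobin (-2.18), and Lrg1 (-1.60) followed. Lcn2, Hp and Lrg1 are also made by hepatocytes as acute phase proteins. Mmp8, neutrophil collagenase, is 1 of the 7 but passed the filter on dim probes through its 4 control channels alone, being not well above background in any treated channel. On the scale used here it was 1.27-fold lower (adjusted p = 0.0317, limma). Its log2 ratio ran from -1.96 to -0.07 over 5 other scalings, so its count supports nothing here. With median centring 2 of the list fell, where 182 of all 25094 genes fell.

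Among 16 neutrophil surface receptor genes tested, 12 fell and 1 rose, with a median of -0.41. Of all genes, 16.3% fell and 14.8% rose. Without background subtraction 8 of the list fell and 1 rose, and with median centring 0 fell. In these settings 3025 and 182 of all 25094 genes fell. Fcgr4, an activating IgG receptor (-1.46), Fpr2, a formyl peptide receptor (-0.90), and Itgb2, the shared chain of the beta-2 integrins (-0.84), were among those that fell. Fpr1, the other formyl peptide receptor gene of the list, was the gene that rose (0.27, SE 0.05, adjusted p = 0.0222, limma). That call was lost without any 1 of the 4 arrays. C5ar1, Trem1 and Ccr1 did not pass.

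Of 10 chemoattractant and growth factor genes tested, 3 fell and 1 rose, beside 16.3% and 14.8% of all genes. Their median was -0.19. Il1b fell by 0.92 (SE 0.05, adjusted p = 0.00126, limma), Il6 by 0.83 and Tnf by 0.45. Il23a rose by 0.24, with a control channel above background on 1 of 4 arrays, and the call was lost without any 1 array. The Cxcr2 ligand genes Cxcl1 (-0.22), Cxcl2 (0.01), Cxcl5 (-0.16) and Ppbp (-0.16) did not pass. Csf3, which encodes the ligand of Csf3r, was too dim to be tested, as were Csf2, Cxcl3, Cxcl15 and Il17a.

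In the list of calprotectin receptors and their signalling partners, 4 of 8 fell: Emb, embigin (-0.95 at day 5 and -1.05 at day 8), Tlr4 (-0.49), Cd14 (-0.39) and Ly96, the co-receptor of Tlr4 (-0.37). The list's median was -0.27, and 2 fell without day 5 replicate 2. Myd88, Ager, Bsg and Cd36 did not pass. Beside this list and those that follow, 16.3% of all genes fell and 14.8% rose. The list of transcription factors of granulocytes and related myeloid cells gave 5 of 9 lower and none higher. Irf8 (-1.30), Stat3 (-0.98), Cebpd (-0.52) and Cebpa (-0.31) changed most. Of 5 other scalings, Cebpa and Cebpd kept their call under 0, Irf8 under 1 and Stat3 under 4. Which cells these changes came from was not tested. Spi1, which encodes PU.1, was the fifth (-0.19, adjusted p = 0.0393, limma), and the median was -0.19. The count of 5 was 1 without day 5 replicate 2, 2 without day 5 replicate 1 or day 8 replicate 2, 3 without day 8 replicate 1, and 1 without background subtraction. Of 6 endothelial adhesion molecule genes, 5 fell (median -0.38), with Vcam1 at -1.40, Icam2 at -0.54, Icam1 at -0.38 and Sele at -0.38. Sele was above background in 1 of 4 treated channels. The count of 5 was 2 without day 5 replicate 2 or day 8 replicate 2, and 2 without background subtraction or with the scanner's processed signals.

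Markers of other blood cells moved beside the neutrophil genes. The shares of all genes to set beside these counts were 16.3% lower and 14.8% higher. Of 8 tested neutrophil markers other than the 9 genes, 6 fell (median -0.54), among them Stfa2l1 (-1.44) and Retnlg (-0.85). All but Retnlg are also in the granule and receptor lists above. The 6 include Mmp8, which was not well above background in any treated channel. Without day 5 replicate 1 or day 8 replicate 2, or without background subtraction, 3 fell, and without day 5 replicate 2, 4 fell. The summed intensity of these 8 markers was 742 to 887 in treated and 1220 to 1500 in control channels. Such sums mix probes whose levels are not comparable, and each level includes the offset of 50 units. The defining markers Ly6g, Cd177, Cxcr1 and Fcnb were not tested. Kupffer cell and macrophage markers gave 10 of 12 lower (median -0.64; summed intensity 42600 to 57000 against 76900 to 81100), with Marco at -2.84 and Aif1 at -1.40. Of these macrophage genes 6 fell without day 5 replicate 2 or day 8 replicate 2, and 6 without background subtraction or with processed signals. Monocyte markers gave 4 of 6 lower (median -1.16; 15400 to 33600 against 50400 to 64700), with Plac8 at -2.21 and Fcgr1 at -1.76. T and NK cell markers gave 5 of 9 lower (median -0.52), namely Nkg7, Klrk1, Gzma (-1.30), Gzmb and Ncr1. The T cell genes Cd3e (-0.08), Cd3g (-0.16) and Cd4 (0.00) and the NK cell gene Klrb1c (0.02) did not pass. The list's summed intensity was 1880 to 2240 against 3090 to 3890. With median centring in place of loess, 1 of the 8 neutrophil markers fell, where 182 of all 25094 genes fell. None of the macrophage, monocyte, T and NK cell, transcription factor, receptor and adhesion molecule genes then fell.

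The remaining lists had fewer calls or calls in both directions, beside 16.3% of all genes lower and 14.8% higher. B and plasma cell genes gave 0 of 6 lower and 1 higher, Cd79b (0.21). None of 6 eosinophil, basophil and mast cell genes and none of 5 platelet genes passed. Erythroid genes gave 0 of 5 lower and 1 higher, Alas2 (0.49). Progenitor genes gave 1 of 3 lower, Cd34 (-0.58), and cholangiocyte genes 1 of 5 higher, Sox9 (0.63). Endothelial genes gave 3 of 7 lower and 1 higher (Kdr, 0.27), and stellate cell genes 3 of 6 in each direction. Hepatocyte genes gave 1 of 7 lower (Ttr, -0.27) and 1 higher (Hnf4a, 0.37), and exocrine pancreas genes 3 of 6 lower. For the pancreas genes, omitting day 8 replicate 1 gave 6 calls, omitting day 8 replicate 2 gave 5, and omitting either day 5 array, or using any of the 5 other scalings, gave 0. Leaving out 1 array each, 0 B and plasma cell genes were called, 0 to 1 progenitor genes, and 1 to 2 endothelial genes were lower. What these other cells contribute to the ratios of the 9 genes was not tested.

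**Figure D5:**
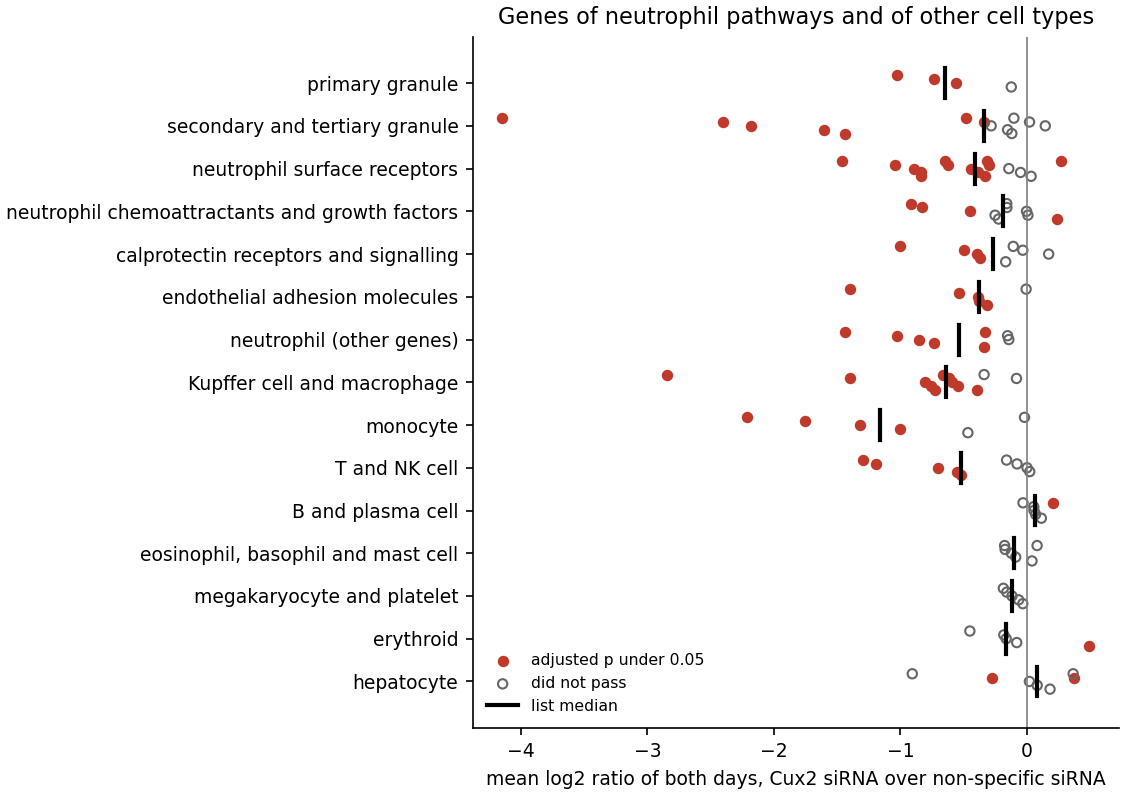
Mean log2 ratio of both days, Cux2 siRNA over non-specific siRNA (horizontal axis), of the tested genes of 15 lists. Filled points passed at an adjusted p under 0.05, open points did not, and black bars are list medians. Medians run from -0.52 to -1.16 for the markers of neutrophils, macrophages, monocytes and T and NK cells, from -0.19 to -0.65 for the 6 neutrophil pathway lists, and from -0.12 to 0.08 for B cells, platelets and hepatocytes.

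Likeness to calprotectin was measured as the Euclidean distance, over the 4 arrays, of a gene's log2 ratios from the mean of S100a8 and S100a9, among 13826 genes with a gene symbol. Irf7 (distance 0.94) and Igf2bp3 (0.96) were nearest, followed by Chil1 (0.97), Ckmt2 (1.00) and Il1rn (1.03). Irf7 had -2.45, -2.30, -2.74 and -2.68 on the 4 arrays, with no split by replicate like that of the calprotectin genes. Chil1, a chitinase-like protein, had -2.33, -1.37, -2.49 and -1.82, and Ckmt2, a mitochondrial creatine kinase, -3.38, -1.73, -3.57 and -1.41. In both the replicate 1 ratios were the lower, as for S100a8 and S100a9.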

How the data were processed

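Agilent Feature Extraction 10.7.1.1 made the scanner tables, per the file headers. From these deposited tables, intensity values (median pixels per spot and per local background) were used. The authors' value table holds log10 ratios, equal within 0.0001 (log2) to the scanner's own for all 45018 features once turned to treated over control. The scanner's deposited p-value of each spot entered no test. The analysis used limma 3.58.1 (R 4.3.3): normexp corrected the background (offset 50), ratios were normalized by loess with 1639 control spots at weight 0, outlier spots (99 to 204 per array) were left out, and spots were averaged per probe. Channel levels were scaled by Aquantile. Probes well above background in 2 or more of 8 readings were kept (31762), the brightest standing for its gene. The lmFit and eBayes fit had 2 residual degrees of freedom and 2.78 from the prior. It was tested on simulated data. Names came from RefSeq on GRCm38.p6, which differs from the build of the array design, and 56.8% of probes had one. Named are the 9 genes, up to 4 genes per list with the largest change among those that passed, genes on which a count of 5 or fewer turns, and the 5 likest genes. A gene of the receptor list that this rule would name is not reported here. The genes and the 22 lists were chosen with earlier results of these data known. Genes named although they did not pass, and single arrays pointed out, were chosen after their values were seen. Figures were drawn with matplotlib 3.10.9.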

Additional observations from a re-analysis of the deposited data

How the results depend on the processing

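The falls of S100a8 and S100a9 over both days kept their call under all 13 alternatives tried, with adjusted p up to 0.0201 and 0.0223 (limma). Cxcr2 and Mpo kept it under 12 of 13 and lost it with median centring in place of loess. Csf3r lost it under 5: median centring (adjusted p = 0.423), the scanner's processed signals (0.0549), the authors' log10 ratios (0.0546), and without day 5 replicate 1 or day 8 replicate 2. With median centring the number of the 8 genes called was 0 at day 5, 0 at day 8 and 2 over both days. Over all 25094 genes it then called 4 lower and 1 higher at day 5 and 3 lower and 0 higher at day 8. Over both days it called 182 lower and 87 higher, against 4090 and 3709. Without background subtraction 2 were called at day 5, where 1457 of all 25094 genes fell and 1422 rose. At day 8 that setting also called 2, with 1085 of all genes lower and 1020 higher. With processed signals 3 were called at day 5 (1054 of all genes lower and 961 higher). With the authors' ratios 3 were called at day 5 (1048 lower and 966 higher). Leaving out 1 array each left a lone array of that day, which was assumed to vary like the other day. Fewer of all genes then passed at that day and over both days. The means over both days ran from -2.14 to -2.68 for S100a8, from -2.20 to -2.79 for S100a9 and from -0.54 to -0.58 for Mpo. The day difference had 0 calls throughout.

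Replicate numbers coincide with dye orientation and were taken as shared numbers only, although deviations of same-numbered arrays correlated (r = 0.5 over 25090 genes). With a replicate block, 5 genes were called at day 5, 5 at day 8 (Csf3r, adjusted p = 0.0306, was added) and 5 over both days. Over all genes the block called 5694 lower and 5561 higher over both days.

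Signs turned only where a value had not passed. Leaving out 1 array each, the day difference ran from -0.87 to 0.21 for S100a8 and from -0.92 to 0.26 for S100a9. It was above 0 without day 5 replicate 2 (0.077 and 0.15) and without day 8 replicate 1 (0.21 and 0.26). Likewise Ngp at day 8 ran from -0.25 to 0.056 and Ltf at day 8 from -0.30 to 0.26. Ltf over both days ran from -0.24 to 0.040. Camp ran from -0.022 to 0.14 at day 5 and from -0.020 to 0.063 over both days, and was -0.043 over both days with processed signals and with the authors' ratios. In the lists, all 85 genes that passed over both days kept their sign under 5 other scalings, of which the processed signals and the authors' ratios hold nearly the same values. Of the 85, 4 kept their call under all 5 and 9 under none. The limits are few arrays, pooled mice, recurring control pools, and dim probes for Mpo, Cxcr2 and the secondary granule genes.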
